A study of Mus musculus with 40 samples.

Results

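The imprinted fetal growth genes followed here were a set of 10 genes picked by name, namely Igf2, H19, Igf2r, Dlk1, Meg3, Plagl1, Cdkn1c, Peg3, Mest and Grb10. All 10 were found by symbol among the 53647 genes of the count tables, and all 10 passed the filter on low counts. They were measured by bulk RNA-seq in 40 libraries from the larynx (16 libraries), esophagus (12) and trachea (12) of FVB/N mice, at 2 libraries in each of 20 groups. The groups of the larynx were adult (6 to 8 weeks by the labels), P0 and E15.5 in libraries whose names carry a base index, and E18.5, E15.5, E13.5, E11.5 and E10.5 in libraries whose names carry a short code. The esophagus and trachea had E15.5 in index libraries and the same 5 embryonic ages in short-code libraries. The labels name no treatment and no engineered allele, the laryngeal index libraries are labelled as vocal fold, and at E10.5 and E11.5 the laryngeal samples were taken at the level of the primitive laryngopharynx. Embryonic tissue was pooled, from 20 animals at E15.5 and 10 at the other embryonic ages, and whether P0 and adult tissue was pooled is not stated in the sources used. The names of the adult and P0 libraries and the study's methods call the 2 libraries of a group biological replicates. P-values reflect only spread between libraries, and that spread was shared over all libraries of a fit, not just those compared. The study's text gives a younger range for the adult mice in one place than in its methods and labels.

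Imprinted genes are transcribed mainly from the copy inherited from one parent. Igf2 encodes an insulin-like growth factor that drives growth of the fetus and placenta and is expressed from the paternal copy, and its neighbor H19, a long noncoding RNA, is expressed from the maternal copy. Igf2r removes Igf2 protein by carrying it to the lysosome. Dlk1, a transmembrane protein related to Notch ligands, and Meg3, a long noncoding RNA, form a second pair of neighbors with opposite parental expression. Plagl1 is a zinc finger transcription factor, Cdkn1c encodes the cyclin-dependent kinase inhibitor p57, Peg3 encodes a zinc finger protein, Mest encodes a protein of the hydrolase fold, and Grb10 is an adaptor that restrains signaling from the insulin and IGF receptors. Many genes of this kind are known to be abundant in the mouse fetus and to decline as growth slows after birth. RNA-seq of whole tissue from an inbred strain, as used here, does not separate the parental copies.

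The genes lie on 6 chromosomes of the GRCm39 assembly, the build to which the annotation used here belongs. On chromosome 7, Igf2 occupies chr7:142204503-142220694 and H19 chr7:142129262-142133957, with 70.5 kb between them and both on the minus strand, and Cdkn1c at chr7:143012069-143014806 is 791 kb from Igf2. Peg3 is at chr7:6706882-6733468 on the same chromosome. Dlk1 (chr12:109418749-109429262) and Meg3 (chr12:109506877-109538165) are both on the plus strand of chromosome 12 and 77.6 kb apart. The other members are Plagl1 at chr10:12936248-13007438, Mest at chr6:30723546-30752058, Grb10 at chr11:11880498-11988683 and Igf2r at chr17:12901293-12988614. Each interval is the whole gene with its exons, introns and untranslated regions. Genes on the opposite strand overlap several of them, and the sources used do not say whether reads were counted by strand. Igf2os opposite Igf2 averaged 25 CPM (read counts of a gene relative to the library total after median-ratio scaling), Airn opposite Igf2r 14.6 CPM and Copg2 opposite Mest 82.7 CPM over the 40 libraries, so reads of these pairs may have been exchanged.

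Of the 10 members, 4 host microRNAs, which are cut from their transcripts and are shown here because they are products of the same loci that the counts of the host genes do not report. The 9 mature forms that RefSeq (GRCm38.p6) lists for them are printed with the seed, bases 2 to 8, in capitals.
miR-483-3p in Igf2: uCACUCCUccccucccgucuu
miR-483-5p in Igf2: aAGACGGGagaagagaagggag
miR-675-3p in H19: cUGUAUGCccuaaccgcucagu
miR-675-5p in H19: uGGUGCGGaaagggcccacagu
miR-770-3p in Meg3: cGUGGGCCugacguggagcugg
miR-770-5p in Meg3: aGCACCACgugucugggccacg
miR-1906 in Meg3: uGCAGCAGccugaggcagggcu
miR-335-3p in Mest: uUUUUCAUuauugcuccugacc
miR-335-5p in Mest: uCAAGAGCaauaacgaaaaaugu
No pair of the 9 shared a seed, so they form 9 groups of 1. The precursor genes Mir483, Mir675, Mir770, Mir1906-1 and Mir335 were listed at 0 in every library. The libraries were made from poly-A RNA, a preparation that is not meant for short RNAs, so the levels of these microRNAs were not measured.

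Promoters were looked at because the members moved together in the larynx. RefSeq (GRCm38.p6) gave 15 promoters, each from 250 bases before to 50 bases after a start site, for 8 of the 10 members, and 2 GC-rich elements described for the Plagl1 zinc finger protein were searched on both strands: GGGGCCCC and GGGGCGGGG, which do not contain each other. GGGGCCCC was present in 1 member's promoter, that of Peg3, and in 1.08% of all 32851 promoters in the table. Among the 15 promoters, GGGGCGGGG was present in 1 of Igf2 and 1 of Igf2r, and it was present in 11.4% of all promoters. With so few promoters, that does not set the members apart from all promoters. A match is only a run of letters and was not tested as a binding site. The capitals below mark the match.
Peg3, chr7:6730370-6730669, minus strand: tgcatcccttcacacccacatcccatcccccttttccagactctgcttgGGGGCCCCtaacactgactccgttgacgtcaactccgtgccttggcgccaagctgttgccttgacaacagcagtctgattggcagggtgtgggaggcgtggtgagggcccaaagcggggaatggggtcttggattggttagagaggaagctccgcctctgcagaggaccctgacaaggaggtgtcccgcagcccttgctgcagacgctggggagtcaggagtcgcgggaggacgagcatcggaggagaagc
Igf2, chr7:142657447-142657746, minus strand: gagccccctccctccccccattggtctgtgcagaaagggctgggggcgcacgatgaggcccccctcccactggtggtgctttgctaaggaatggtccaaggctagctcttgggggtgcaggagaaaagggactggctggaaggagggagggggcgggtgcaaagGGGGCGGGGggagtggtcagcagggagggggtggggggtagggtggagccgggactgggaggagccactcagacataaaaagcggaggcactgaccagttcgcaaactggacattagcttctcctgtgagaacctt

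Depth and quality differed between the kinds of library. Index libraries held 22553115 to 35831461 expected counts and short-code libraries 3286391 to 26378614. Mitochondrial ribosomal RNA took at most 0.196% of counts in index libraries and 9.30 to 32.2% in short-code libraries, so contrasts between group means of adult, P0 and E15.5 were kept within index libraries and those of the embryonic ages within short-code libraries, whereas both splines over age combine the kinds. In all, 5 libraries stood apart, which were the short-code larynx E11.5 replicate 2, larynx E15.5 replicate 2 and both trachea E15.5 libraries, and the index esophagus E15.5 replicate 2. Counts of many olfactory receptor genes (685 to 1108, against 80 to 319 in the other 37 libraries) marked 3 libraries. The short-code trachea E15.5 replicate 1 had 7.78 CPM summed over 10 airway epithelium genes and 4.59 over 10 squamous epithelium genes, against 931.9 and 806.6 CPM in replicate 2, so epithelial markers were nearly absent from it. Sums over marker lists are CPM of all counts without the median-ratio scaling. Airway epithelium genes were also low in each tissue at E10.5 and E13.5, at up to 26.1 CPM.

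The main finding in the larynx was a fall of 9 of the 10 members in adult relative to P0 tissue, by 6.95-fold for Plagl1 to 201-fold for Dlk1, with Igf2r the gene that did not pass the test. The members together made 734.4 to 1007 CPM of all counts in the adult libraries and 34600 to 36230 CPM in the P0 libraries. Of all 36495 genes tested, 2.03% were called lower in the adult and 2.10% higher, and no member was higher. The median log2 fold change was -4.34 over the members and 0.00 over all genes. The set was listed with this fall in view, so the count describes these genes and is no independent evidence. In bulk tissue, fewer cells that express a gene and less RNA of that gene per cell cannot be told apart.

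**Figure D1:**
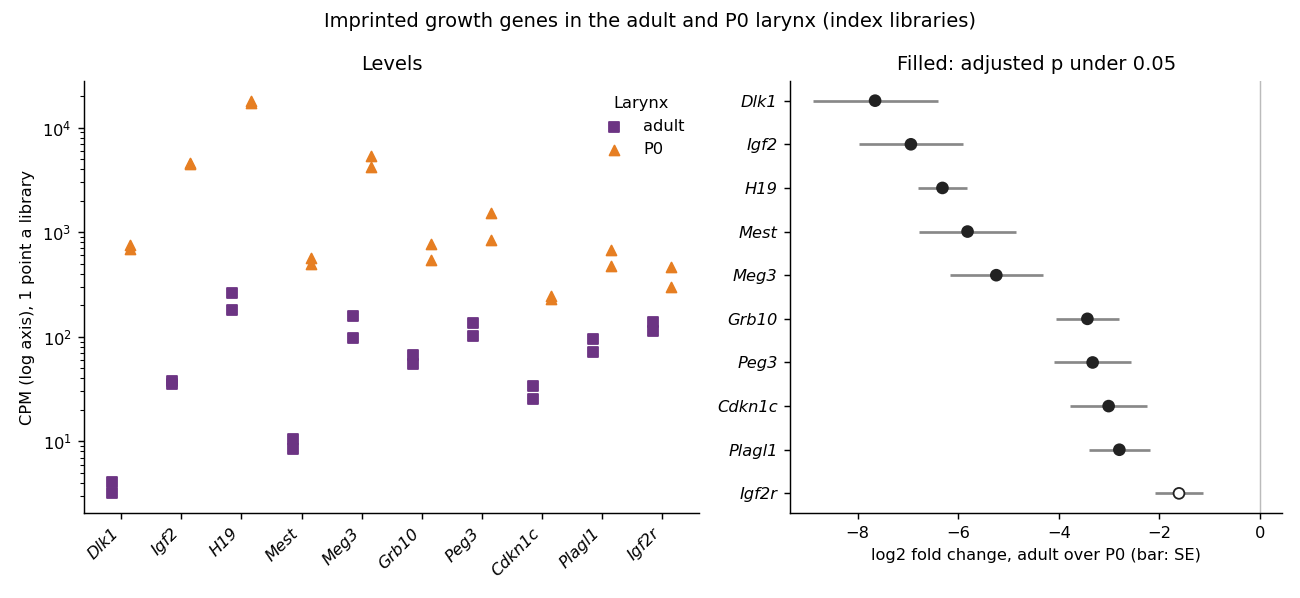
Level of each imprinted growth gene in the adult and P0 larynx (left, CPM on a log axis, 1 point per library, 2 libraries a group) and log2 fold change of adult over P0 with its standard error (right, filled points past the threshold). Every adult point lies below both P0 points of its gene, and the change runs from -7.65 for Dlk1 to -1.61 for Igf2r.

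Igf2 was at 38.1 and 35.6 CPM in the adult libraries, against 4444 and 4604 CPM in the P0 libraries. The growth factor transcript was therefore low in both adult samples and abundant in both newborn samples, with no overlap. Its log2 fold change was -6.94 ± 1.03, a 123-fold fall (edgeR's quasi-likelihood test, adjusted p = 0.000244, n = 2 each). The value after ± is the SE from the fit of all 40 libraries. H19 had 261.5 and 180.7 CPM in the adult larynx and 18100 and 17040 CPM at P0, and was the most abundant member in both. It fell by 6.31 ± 0.49 on the log2 scale, or 79.5-fold (adjusted p = 2.35e-08).

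Both genes of the Dlk1 and Meg3 locus fell. Dlk1, which is known for holding back the maturation of fat precursors, was at 3.18 and 4.04 CPM in the adult larynx (77 and 122 expected counts) and 694.5 and 760.9 CPM at P0. The groups were far apart, and the log2 fold change of -7.65 ± 1.24 was the largest among the members (201-fold lower, adjusted p = 0.000502). Meg3 had 156.2 and 98.2 CPM in adults and 4236 and 5395 CPM at P0, which gave -5.24 ± 0.92 (37.9-fold lower, adjusted p = 0.00118).

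Mest, Grb10 and Peg3 are paternally or tissue-dependently expressed genes of 3 other imprinted regions. Mest was at 10.6 and 8.48 CPM in adult larynx and 501.4 and 572.2 CPM at P0, a log2 fold change of -5.81 ± 0.97 (adjusted p = 0.000711). Grb10, the adaptor that restrains insulin and IGF receptors, had 66.6 and 55.0 CPM in adults and 546.6 and 765.7 CPM at P0 (-3.43 ± 0.63, adjusted p = 0.00162). These genes fell to low but well-covered levels. Peg3 was at 135.3 and 101.2 CPM in adults and 844.2 and 1530 CPM at P0 (-3.33 ± 0.76, adjusted p = 0.00966).

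Cdkn1c, Plagl1 and Igf2r had the smallest changes of the 10. Cdkn1c, which blocks entry into the cell cycle, had 33.8 and 25.2 CPM in the adult larynx and 229.3 and 245.9 CPM at P0 (-3.01 ± 0.76, adjusted p = 0.0205). Plagl1, a transcription factor known to act on other imprinted genes in the mouse, had 94.6 and 71.6 CPM in adults and 477.9 and 677.0 CPM at P0 (-2.80 ± 0.60, adjusted p = 0.00622). Igf2r showed the smallest difference of the 10, at 137.3 and 113.3 CPM in adults and 300.2 and 465.7 CPM at P0. The 2 groups of Igf2r did not overlap, but the log2 fold change of -1.61 ± 0.49 did not pass the threshold (adjusted p = 0.0574). It passed in DESeq2 (adjusted p = 0.0114) and in a fit of the larynx libraries alone (0.00204).

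The calls were not equally stable when 1 of the 4 libraries was left out. Igf2, H19, Dlk1, Meg3 and Mest were called in each of the 4 refits. Cdkn1c was called in none of them (adjusted p = 0.156 without adult replicate 1, 0.220 without adult replicate 2, 0.0773 without P0 replicate 1 and 0.0958 without P0 replicate 2). Plagl1 lost its call without adult replicate 1 (0.0732), adult replicate 2 (0.118) and P0 replicate 2 (0.0622), and Peg3 without the same 3 libraries (0.106, 0.147 and 0.1004). Grb10 lost it only without adult replicate 2 (0.0528). The direction of each member was the same in every refit.

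Per kilobase of exon, the order of the members also differed between the ages. H19 led in both, with 91.8 and 63.4 CPM per kb in the adult larynx and 6356 and 5984 CPM per kb at P0. Igf2 was the second most abundant at P0, at 721.1 and 747.2 CPM per kb, but in the adult, at 6.19 and 5.77 CPM per kb, it lay below Cdkn1c (15.7 and 11.7) and Igf2r (14.7 and 12.1). In the adult order Cdkn1c, Igf2r, Plagl1, Peg3, Meg3, Grb10 and Igf2, neighbors overlapped or lay within the spread of their 2 libraries. Dlk1 was the lowest in the adult at 0.527 and 0.670 CPM per kb, under Mest at 1.31 and 1.05, and Igf2r the lowest at P0 at 32.0 and 49.7.

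Sums over cell type marker genes also differed between the adult and P0 libraries, and such sums can change with cell number or with expression per cell. The part of cell composition in the fall was not tested. Summed over 10 fibroblast genes the adult libraries had 3724 and 2845 CPM and the P0 libraries 13990 and 17120 CPM, 11 skeletal muscle genes had 8092 and 7797 against 36980 and 37210 CPM, and 10 cartilage genes had 2276 and 1024 against 11760 and 13460 CPM. Genes of the thyroid, an organ beside the larynx, had 42.0 and 48.0 CPM in adults and 4822 and 8380 CPM at P0 over 8 genes. Squamous epithelium genes went the other way, with 34050 and 26420 CPM in adults and 6536 and 3333 CPM at P0 over 10 genes. The drop of the fibroblast, muscle and cartilage sums was smaller than that of the summed members, and the drop of the thyroid sum was larger.

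Other imprinted genes did not all follow. Of 44 tested, 18 fell and 1 rose in the adult larynx relative to P0, with a median log2 fold change of -1.30 and a negative estimate in 34. Rian, a noncoding RNA of the Meg3 cluster, was at 92.0 and 63.7 CPM in adults and 2546 and 3491 CPM at P0 (-5.28, adjusted p = 0.000490), and Rtl1, a retrotransposon-derived gene of the same cluster, at 0.619 and 0.265 CPM against 250.6 and 244.6 CPM (-9.14, adjusted p = 0.000374). Magel2 (-6.77, adjusted p = 0.00241) and Peg10 (-5.56, adjusted p = 0.00411) also fell, and Gnas, which encodes the alpha subunit of a stimulatory G protein, fell by 1.37 (adjusted p = 0.00231). The gene that rose was Dcn, which encodes the matrix proteoglycan decorin and is imprinted in the placenta in mice. It had 1294 and 1403 CPM in adults and 507.7 and 495.1 CPM at P0 (1.43, adjusted p = 0.00730).

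**Figure D2:**
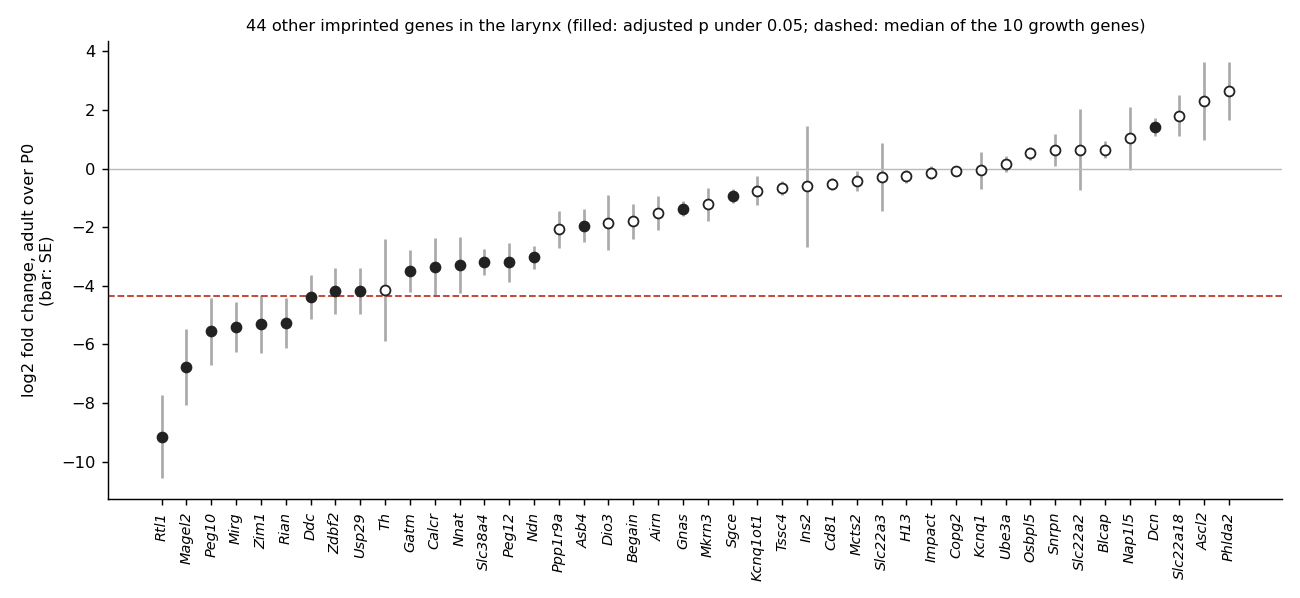
Log2 fold change of adult over P0 larynx with its standard error (bars) for the 44 other imprinted genes tested, ordered by size, with filled points for genes past the threshold and a dashed line at the median of the 10 growth genes (-4.34). The filled points are 18 genes below 0 and 1, Dcn, above it.

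The IGF pathway through which Igf2 acts was described by 19 other genes, the ligand Igf1, receptors, binding proteins and adaptors. In the adult larynx relative to P0, 1 of them was called lower and none higher, and their median log2 fold change was -0.06. The called gene was Irs4, an insulin receptor substrate (-4.62, adjusted p = 0.0262). Igf1, the ligand that is known to take over growth control after birth, had 48.7 and 46.2 CPM in adult larynx and 112.1 and 179.0 CPM at P0, a difference that did not pass (-1.62, adjusted p = 0.122), and the receptor Igf1r had -0.42 (adjusted p = 0.793). Within the Lin28 and let-7 fetal program, 3 of 10 genes fell and none rose. These were the RNA-binding proteins named for binding Igf2 mRNA, Igf2bp1 (0.0413 and 0.0662 CPM in adults, 10.0 and 14.5 CPM at P0, -7.66, adjusted p = 0.000893), Igf2bp3 (-5.15, adjusted p = 0.00225) and Igf2bp2 (-2.80, adjusted p = 0.00710).

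Other cyclin-dependent kinase inhibitors stand beside Cdkn1c here. Among 6 such genes 1 rose in the adult larynx and none fell, namely Cdkn1b, which encodes p27, with 77.7 and 70.3 CPM in adults and 37.7 and 42.1 CPM at P0 (0.89, adjusted p = 0.0223). Whether Cdkn1c and Cdkn1b differed in their change was not tested. Of 20 proliferation genes, 6 fell and none rose, with a median of -1.20. The mitotic kinase gene Cdk1 had 8.01 and 9.37 CPM in adults and 29.2 and 30.7 CPM at P0 (-1.78, adjusted p = 0.00375), and Foxm1 (-1.55, adjusted p = 0.00639), Ccna2 (-1.38, adjusted p = 0.0271) and Ccnb2 (-1.37, adjusted p = 0.0354) fell alongside.

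Between E15.5 and P0, both in index libraries, no member passed the test, against 0.562% of all genes called in either direction. At an unadjusted p under 0.05, 2698 genes were higher and 1714 lower at P0. Igf2 was nearly level, at 4444 and 4604 CPM at P0 and 5188 and 4434 CPM at E15.5 (-0.09), and so was Dlk1, at 694.5 and 760.9 CPM at P0 and 1012 and 583.3 CPM at E15.5 (-0.13). H19 had 18100 and 17040 CPM at P0 and 12310 and 10480 CPM at E15.5 (0.63). The deep fall of Igf2, H19 and Dlk1 thus lay between P0 and the adult samples, with no sample of an age in between.

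Among the other members, 3 had separated groups with larger estimates. Meg3 was at 4236 and 5395 CPM at P0 and 1447 and 892.8 CPM at E15.5 (2.04 ± 0.80, unadjusted p = 0.0167, adjusted p = 0.271). Cdkn1c was at 229.3 and 245.9 CPM at P0 and 875.7 and 777.3 CPM at E15.5 (-1.80, adjusted p = 0.290). Mest was at 501.4 and 572.2 CPM at P0 and 1649 and 2118 CPM at E15.5 (-1.81, adjusted p = 0.359). These estimates failed the adjustment with the spread shared over all libraries. Without the 5 libraries that stood apart, Cdkn1c (adjusted p = 0.000145), Mest (0.000528), Grb10 (0.0141) and Plagl1 (0.0498) were called lower and Meg3 higher (0.00818), and in a fit of the larynx libraries alone Meg3 (0.00143), Mest (0.000619), Cdkn1c (0.00496) and Grb10 (0.0420) were called in the same directions. None of the 5 libraries belongs to this comparison itself, and their part in it, through the scaling, the filter or the shared spread, was not tested. The share of all genes called in these alternative fits is not given here, so their calls do not set the members apart from all genes.

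**Figure D3:**
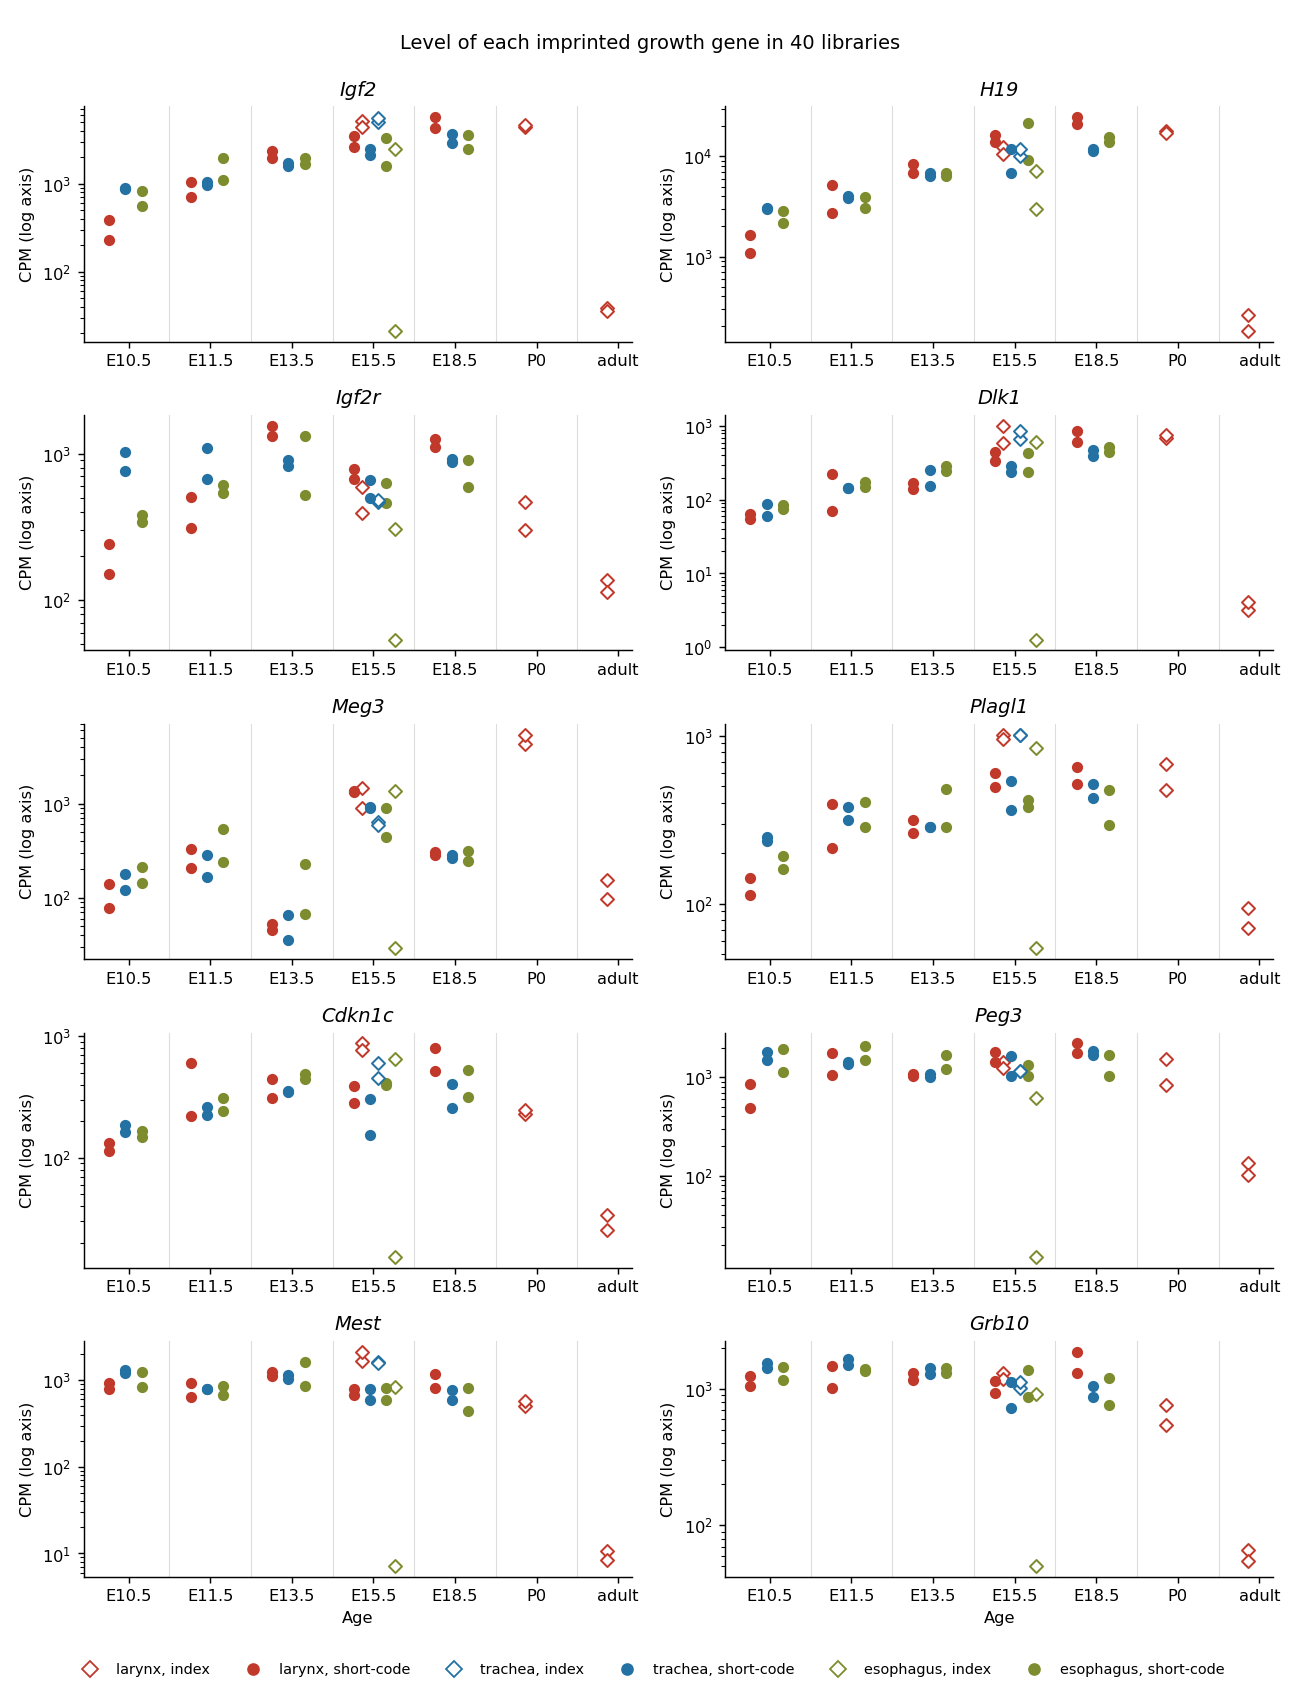
CPM of each imprinted growth gene in all 40 libraries on a log axis against age from E10.5 to adult, 1 point per library, colored by tissue, with short-code and index libraries as different symbols. Igf2, H19 and Dlk1 climb over the embryonic ages in short-code libraries and drop in the adult larynx. Mest and Grb10 overlap between E10.5 and E18.5 in short-code libraries.

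Before birth the members did not move as a block. Over the short-code libraries of the 3 tissues, Igf2 ranged over 227.5 to 895.7 CPM at E10.5, 713.3 to 1970 at E11.5, 1596 to 2366 at E13.5, 1610 to 3465 at E15.5 and 2479 to 5731 at E18.5 (6 libraries per age). H19 ranged over 1091 to 3041 CPM at E10.5, 2703 to 5171 at E11.5, 6321 to 8381 at E13.5, 6875 to 21450 at E15.5 and 11360 to 24740 at E18.5. Dlk1 ranged over 55.8 to 89.1 CPM at E10.5, 71.2 to 222.7 at E11.5, 140.9 to 286.7 at E13.5, 238.9 to 444.7 at E15.5 and 391.1 to 870.4 at E18.5. For each of these 3 genes the E10.5 and E13.5 libraries did not overlap. Mest was at 441.0 to 1172 CPM at E18.5 and 787.8 to 1299 CPM at E10.5, and Grb10 at 762.1 to 1859 CPM at E18.5 and 1057 to 1536 CPM at E10.5, with the ages overlapping.

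The remaining members lay between these patterns. Plagl1 ranged over 112.7 to 247.8 CPM at E10.5, 215.9 to 403.7 at E11.5, 262.2 to 479.5 at E13.5, 362.0 to 596.7 at E15.5 and 295.2 to 648.7 at E18.5. Cdkn1c ranged over 112.7 to 185.1 CPM at E10.5, 222.7 to 604.2 at E11.5, 311.0 to 486.1 at E13.5, 153.1 to 416.3 at E15.5 and 254.8 to 796.5 at E18.5. Both were lowest at E10.5, and for Cdkn1c the E10.5 libraries did not overlap with those of E11.5, E13.5 or E18.5. Peg3 ranged over 489.8 to 1944 CPM at E10.5, 1053 to 2066 at E11.5, 1010 to 1688 at E13.5, 1019 to 1812 at E15.5 and 1033 to 2213 at E18.5, so its ages overlapped. Igf2r differed most between tissues at E10.5, where it had 763.0 and 1027 CPM in the trachea, 380.4 and 340.7 CPM in the esophagus and 150.8 and 239.8 CPM in the larynx. That spread at 1 age was noticed in the values and has no test here.

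A spline over embryonic age, tested at an adjusted p of at most 0.01, called 6 of the 10 members, against 34.3% of all genes. It was fitted to the 36 embryonic libraries of both kinds, index esophagus E15.5 replicate 2 included, with no term for kind or tissue. In short-code libraries only it called 5 members, and 6 when the 5 libraries apart were omitted. Member counts of alternative fits in this paragraph stand without the share of all genes called in the same fit. A changed count there does not set the members apart from all genes. The 6 of the full fit were H19 (adjusted p = 8.58e-09), Dlk1 (2.87e-05), Igf2 (8.34e-05), Plagl1 (0.000418), Meg3 (0.00109) and Cdkn1c (0.00698), whereas Igf2r, Grb10, Peg3 and Mest had values of 0.0553 to 0.789. Over the 16 larynx libraries including P0 and adult, 9 of 10 were called, against 26.1% of all genes, and Meg3 (0.0160) was the one that was not. With the short-code larynx libraries only, which leaves out P0 and adult, 4 were called. Leaving out either adult library left 5.

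From E10.5 to E13.5, averaged over the tissues, 5 members rose and none fell at E13.5, while 13.6% of all genes were higher and 16.6% lower. Igf2 had 1944 and 2366 CPM in the E13.5 larynx and 227.5 and 387.8 CPM at E10.5, and over the tissues its log2 fold change was 1.70 ± 0.47 (adjusted p = 0.00660). H19 (1.67 ± 0.23, adjusted p = 2.98e-06), Igf2r (1.39 ± 0.28, adjusted p = 0.000333), Cdkn1c (1.40 ± 0.41, adjusted p = 0.0104) and Dlk1 (1.52 ± 0.54, adjusted p = 0.0342) rose with it. The call of Dlk1 was lost in 9 of the 12 refits that leave out a library (adjusted p up to 0.0899, without trachea E10.5 replicate 2). Plagl1 (0.85, adjusted p = 0.0506) and Meg3 (-1.0, adjusted p = 0.0975) did not pass, and Peg3, Mest and Grb10 had -0.03, 0.17 and 0.01. Without esophagus E13.5 replicate 2, Meg3 passed as lower at E13.5 (-1.38, adjusted p = 0.0364).

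Genes of the growth pathway and cell type marker genes also changed in this window. In the IGF list 12 of 19 genes rose and 2 fell at E13.5, with the binding proteins Igfbp6 (6.62), Igfbp3 (2.10) and Igfbp5 (1.99) and the ligand Igf1 (1.64) among the risers. In the Lin28 and let-7 program 7 of 10 fell and none rose, with Lin28a at -6.32, Trim71 at -4.16 and Lin28b at -3.71. Of the other imprinted genes 15 of 44 rose and 7 fell. Cardiomyocyte genes (8 of 8 called higher) had 9936 to 15380 CPM in the E13.5 larynx and 4.44 to 14.5 CPM at E10.5, fibroblast genes (8 of 10 called higher) had 4865 to 9853 CPM at E13.5 and 1122 to 2226 CPM at E10.5 over the tissues, and hepatocyte genes, which mark a fetal organ rich in Igf2, had 89.3 to 3008 CPM at E13.5 and 17.4 to 1295 CPM at E10.5. Their part in the rise of the members was not tested.

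The step to E15.5, which was chosen for a comparison after the data had been seen, was marked by a rise of Meg3. Over the short-code libraries Meg3 had been at 77.6 to 213.3 CPM at E10.5, 166.9 to 538.5 at E11.5 and 35.4 to 228.2 at E13.5. At E15.5 against E13.5, Meg3 had 1313 and 1345 CPM against 52.9 and 45.2 CPM in the larynx, 902.8 and 444.7 against 67.2 and 228.2 CPM in the esophagus, and 922.1 and 886.9 against 65.4 and 35.4 CPM in the trachea. Every E15.5 library was above every E13.5 library of its own tissue, and the fitted change of Meg3 was 3.70 ± 0.50 log2 (13.0-fold, adjusted p = 1.89e-06). The median of all genes rose by 0.70 log2 in this step, with 19.6% of genes called higher and 10.7% lower, and under TMM scaling the median was 0.59. H19 rose by 0.91 ± 0.23 (adjusted p = 0.00303), little more than that shift, and Igf2r fell (-0.76 ± 0.28, adjusted p = 0.0356). Igf2r was at 633.9 and 462.5 CPM at E15.5 against 520.6 and 1311 CPM at E13.5 in the esophagus, so the groups overlapped there, and without esophagus E13.5 replicate 2 the change was -0.49 (adjusted p = 0.208). The call of Igf2r was lost in 8 of 12 refits.

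Genes of the Meg3 cluster and unrelated nuclear RNAs moved in the same step. Rian rose by 3.18 (adjusted p = 3.63e-06), Rtl1 by 3.15 (adjusted p = 0.000204) and Mirg by 2.62 (adjusted p = 2.85e-05) at E15.5, whereas their neighbor Dlk1 had 0.67 with overlapping groups. Malat1 and Neat1, nuclear long noncoding RNAs outside imprinted regions that were added after the Meg3 values had been seen, rose by 1.44 (adjusted p = 4.40e-05) and 5.59 (adjusted p = 1.66e-10). The part that a change in nuclear RNA between libraries had in the rise of Meg3 was not tested. All 20 proliferation genes fell in the same step.

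Meg3 was then lower at E18.5 than at E15.5, the other comparison chosen after the data had been seen. It had 287.6 and 306.9 CPM at E18.5 against 1313 and 1345 CPM at E15.5 in the larynx, 316.2 and 248.0 against 902.8 and 444.7 CPM in the esophagus, and 285.1 and 263.9 against 922.1 and 886.9 CPM in the trachea. Over the tissues it fell by 1.71 ± 0.46 (adjusted p = 0.0394), with 1.56% of all genes called lower and a median of -0.29, but the call was lost in 9 of 12 refits (adjusted p up to 0.124, without esophagus E15.5 replicate 1). Rian did not pass in this step (-0.53, adjusted p = 0.627). No member was called higher. For the same reason as the step before, this comparison was not run without the 5 libraries that stood apart.

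Across the whole late window, E18.5 relative to E13.5, 2 members rose over the mean of the tissues, against 13.9% of all genes. H19 rose by 1.19 ± 0.23 (adjusted p = 0.000206) and Meg3 by 1.99 ± 0.46 (adjusted p = 0.00152), and both were called in every refit. Igf2 (0.98, adjusted p = 0.136) and Dlk1 (1.39, adjusted p = 0.0624) did not pass, although without the 5 libraries that stood apart Dlk1 did (1.39, adjusted p = 3.42e-07). In the larynx alone H19 (1.58 ± 0.40, adjusted p = 0.0115) and Meg3 (2.60 ± 0.82, adjusted p = 0.0459) rose, against 5.43% of all genes. Meg3 lost this call in each of the 4 refits and H19 in 3, with the highest adjusted p at 0.282 for Meg3 and 0.140 for H19.

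In the esophagus and trachea alone no member passed in the same window, where 10.1% and 10.9% of all genes were called in either direction. H19 in the esophagus (1.17, adjusted p = 0.0610) and Meg3 in the trachea (2.44, adjusted p = 0.0518) came nearest. The difference between the tissues in this change was tested by an interaction term and was called for no member and for 0% of all genes (adjusted p = 1 for each member, unadjusted p from 0.264 to 0.919). So a call in the larynx and none in the other tissues is not shown to be a difference between them.

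No difference between tissues was detected in these genes with 10 short-code libraries per tissue. None of the 10 members was called between the larynx and the esophagus (0.0630% of all genes called in either direction), between the trachea and the esophagus (0.206%) or between the larynx and the trachea (0.211%). The estimates lay within 0.44 log2 of 0, and the largest were in trachea relative to esophagus, at 0.44 ± 0.21 for Igf2r (SE, unadjusted p = 0.0497, adjusted p = 0.922) and -0.44 ± 0.35 for Meg3. Igf2 was at -0.14 ± 0.36 and H19 at 0.02 ± 0.18 in larynx relative to esophagus, so differences of that order would not have been detectable. In the larynx at E18.5 the levels of Igf2 (5731 and 4304 CPM) and H19 (24740 and 20880 CPM) were above those of both other tissues at that age (2479 to 3631 CPM for Igf2 and 11360 to 15630 CPM for H19). This gap at 1 age was noticed in the values and has no test here.

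At E15.5, where both kinds of library exist, 1 of the 10 members differed between them over the mean of the tissues, against 16.1% of all genes lower and 10.3% higher in index libraries. It was Igf2r, lower in index libraries (-0.82 ± 0.28, adjusted p = 0.0263), in a comparison whose median over all genes was -0.39 (-0.25 under TMM, with which Igf2r no longer passed, adjusted p = 0.0908). The outcome depended on a single library, index esophagus E15.5 replicate 2. There Igf2 was at 21.1 CPM, Dlk1 at 1.26, Mest at 7.20, Peg3 at 14.9, Cdkn1c at 15.2 and Meg3 at 29.1 CPM, against 2472, 605.4, 845.0, 610.9, 644.7 and 1374 CPM in replicate 1. H19 was the member that remained abundant in it, at 2981 CPM against 7075 CPM.

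**Figure D4:**
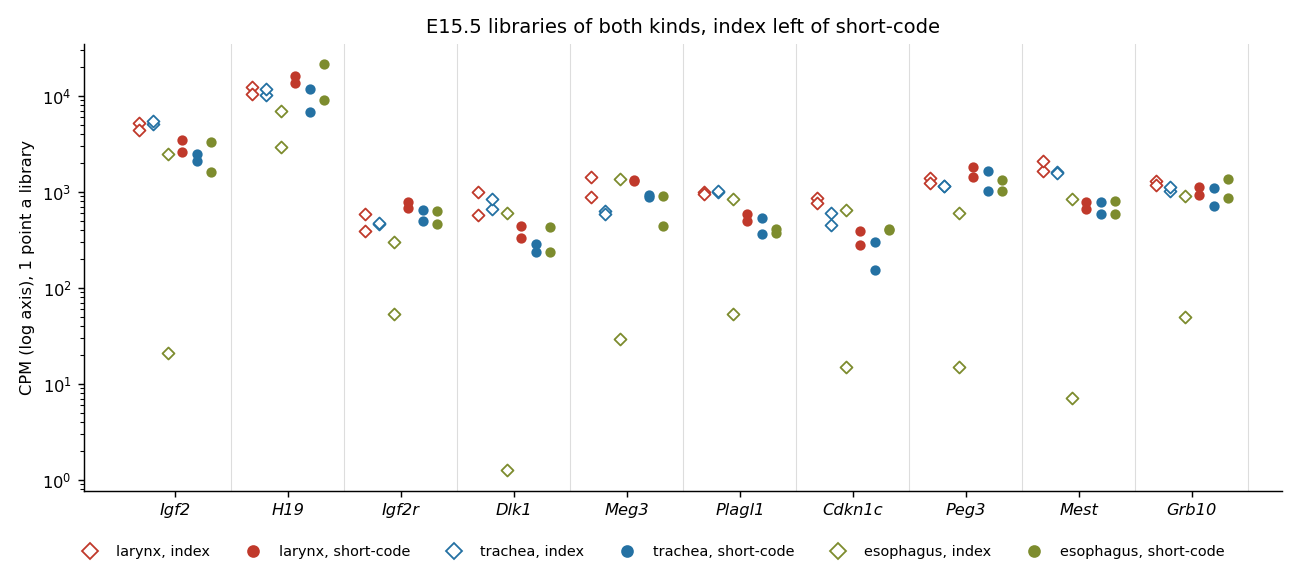
CPM on a log axis of each imprinted growth gene in the 12 libraries of E15.5, 1 point per library, with index libraries left of short-code libraries and tissues in different colors. Index esophagus replicate 2 is the lowest point of each gene, with the smallest gap on the log axis for H19 (2981 CPM against 7075 CPM in replicate 1).

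The same library stood apart in its cell type markers. It had 78800 CPM over 10 squamous epithelium genes against 4012 CPM in replicate 1, 2282 against 14750 CPM over the fibroblast genes, 31460 against 8582 CPM over the skeletal muscle genes, 338.6 against 1666 CPM over the proliferation genes and 273.2 against 5938 CPM over 8 erythroid genes. The members summed to 2353 CPM in it against 22460 CPM. Without it, index libraries had higher Igf2 (0.62, adjusted p = 0.0131), Dlk1 (1.14, adjusted p = 0.000168), Plagl1 (1.04, adjusted p = 2.55e-05), Cdkn1c (1.06, adjusted p = 0.000247) and Mest (0.95, adjusted p = 0.000155) than short-code libraries, and lower Igf2r (-0.56, adjusted p = 0.0451). Without replicate 1 of that group in its place, the estimates of Igf2, Dlk1, Cdkn1c and Mest were negative instead. Both refits leave a single library in that group. The share of all genes called in them is not given here, so their calls do not set the members apart from all genes. No contrast between group means sets a P0 or adult value against a short-code value, whereas the spline over the larynx combines both kinds of library. The label of replicate 2 was kept, and whether the library holds the tissue it names was not tested.

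Ratios within a library do not depend on its scaling. The ratio of H19 to Igf2 was 6.86 and 5.08 in the adult larynx and 4.07 and 3.70 at P0, and 1.55 to 6.44 over the 30 short-code libraries. Both RNAs fell 79.5-fold or more in the adult relative to P0 larynx while this ratio moved far less. Index esophagus E15.5 replicate 2 was the exception, at a ratio of 141 against 2.02 to 2.86 in the other index libraries of that age. The ratio of Igf2 to its clearance receptor Igf2r was 0.278 and 0.314 in the adult and 14.8 and 9.89 at P0. In index libraries of E15.5 it was 8.73 and 11.3 in the larynx and 10.9 and 11.6 in the trachea. The index esophagus of that age had 8.16 in replicate 1 and 0.394 in replicate 2. Short-code libraries had 0.872 to 5.25 over all ages and 3.48 to 5.25 at E15.5, so the ratio also differed between kinds of library.

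The 2 genes of the chromosome 12 locus did not hold a fixed ratio. Meg3 relative to Dlk1 was 49.1 and 24.3 in the adult larynx and 6.10 and 7.09 at P0. In short-code libraries of all tissues it was 1.19 to 2.84 at E10.5, 1.14 to 3.66 at E11.5, 0.227 to 0.796 at E13.5, 1.86 to 4.02 at E15.5 and 0.330 to 0.675 at E18.5, so the E13.5 and E18.5 libraries lay below those of the other ages. Within the noncoding part of the cluster, Rian relative to Meg3 was 0.589 and 0.648 in adults and 0.601 and 0.647 at P0. In short-code libraries at E18.5 it was 6.12 to 12. At E15.5 it was 1.36 and 1.74 in laryngeal index libraries and 2.17 to 5.36 in short-code libraries. All 10 index libraries had 0.589 to 1.74 and all 30 short-code libraries 1.71 to 12. Between P0 and E18.5, age and kind of library therefore cannot be told apart.

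**Figure D5:**
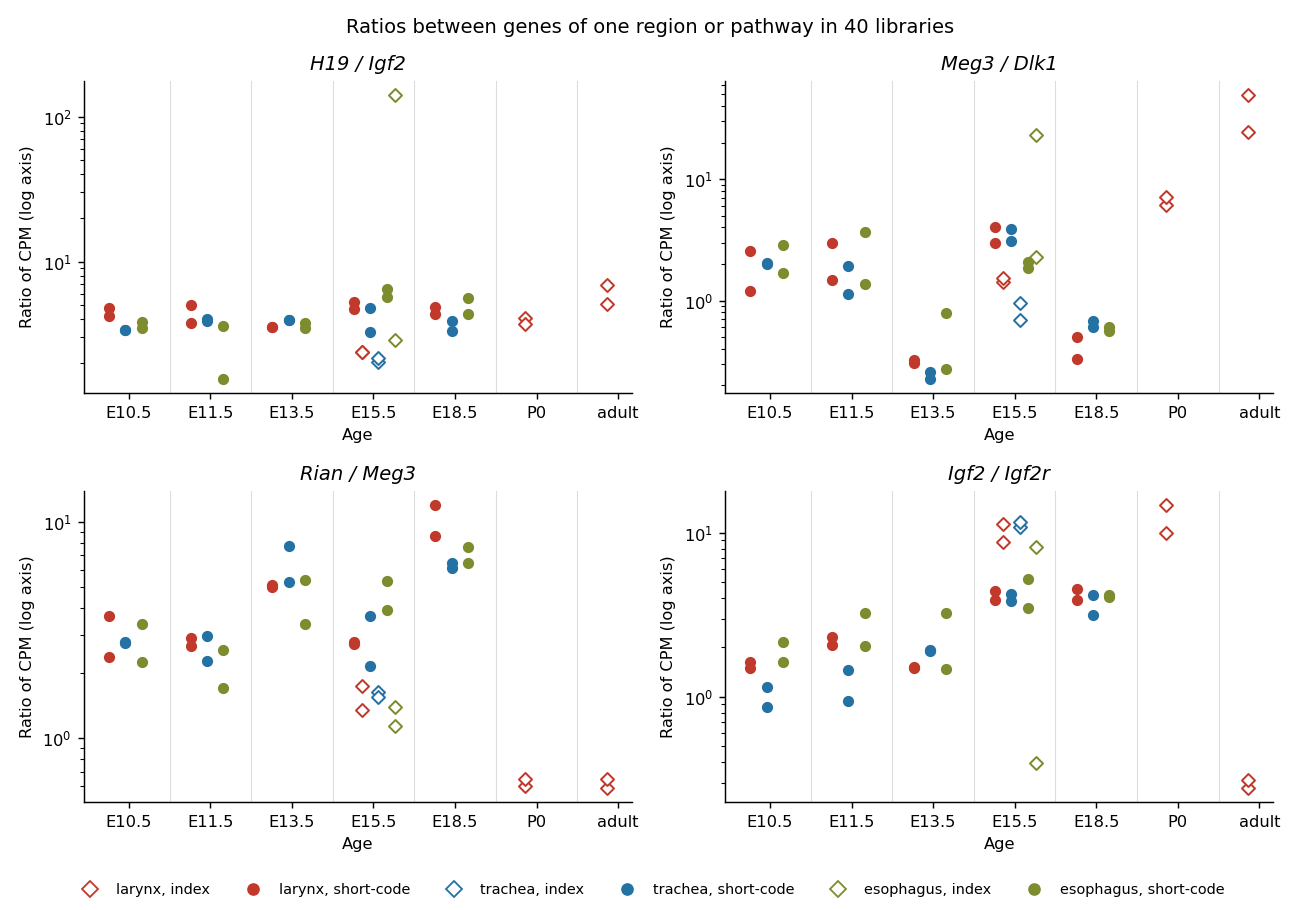
Ratios of H19 to Igf2, Meg3 to Dlk1, Igf2 to Igf2r and Rian to Meg3 in all 40 libraries on log axes against age, 1 point per library, colored by tissue and with different symbols for the kinds of library. Meg3 per Dlk1 dips at E13.5 and E18.5, and 1 index esophagus library at E15.5 lies at 141 for H19 per Igf2.

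Across the 20 group means of log2(CPM + 1), the members most like Igf2 were Dlk1 (Pearson r = 0.982), H19 (0.929), Plagl1 (0.912) and Cdkn1c (0.906), and Meg3 was the least alike (0.488). Within the 15 short-code groups H19 (0.965), Dlk1 (0.939) and Plagl1 (0.918) stayed close to Igf2, whereas Mest (-0.26) and Grb10 (-0.26) did not and resembled each other (0.677). These are descriptions across groups that share age, tissue and library kind, with no test. Outside the members, the 5 genes most like Igf2 among 14381 well-counted genes were Capn6 (0.962), Zim1 (0.946), Nrk (0.943), Prnd (0.927) and Atp8b2 (0.915). Zim1 is itself imprinted and lies next to Peg3, and Capn6 encodes a calpain-family protein. Zim1 was at 11.4 and 9.27 CPM in the adult larynx and 299.6 and 517.2 CPM at P0, and Capn6 at 19.5 and 16 CPM in adults and 468.4 and 630.5 CPM at P0. Both were also near the bottom in index esophagus E15.5 replicate 2, at 1.46 and 2.18 CPM.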

How the data were processed

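RNA of FVB/N mouse larynx, esophagus and trachea was sequenced from poly-A libraries. The authors aligned reads with Bowtie2 2.4.2 and estimated gene counts with RSEM 1.3.3, and deposited the expected counts without normalization for 53647 Ensembl genes of GRCm39. RSEM splits a multi-mapping read over the genes it fits. The sequencer of each library is not stated in the sources used. Samples were grouped by tissue, age and kind of library from the labels. Of the gene identifiers, 52610 matched GENCODE vM39, from which symbols, positions and exon lengths were taken.

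Counts were rounded, scaled by median ratios (RLE) and filtered to genes that reached a normalized count of 1 in 2 or more libraries. One mean per group was fitted to 40 libraries and 36495 genes (20 residual degrees of freedom) in edgeR 4.0.16 (R 4.3.3), with its quasi-likelihood test and Benjamini-Hochberg adjustment over all genes tested, at 0.05. Standard errors follow from the fitted coefficient and its test statistic, so they too use the spread shared over all libraries of the fit. Natural splines with 3 degrees of freedom on age rank were tested at 0.01. The count limits of the filter, the scaling, a natural spline on age rank and its threshold follow the study's methods. The quasi-likelihood test, the degrees of freedom of the spline and the Benjamini-Hochberg adjustment were chosen here. The study adjusted by independent hypothesis weighting, filtered within tissue type and mapped genes to human orthologs. Alternatives were TMM, no filter, DESeq2 1.42.0, a replicate block, merged kinds of library, larynx or short-code libraries only, omission of 5 libraries, edgeR 4's newer fit and 92 refits with a library left out, which kept the dispersion trend of the full fit.

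All 10 members are named in every comparison. From each described list, up to 4 called genes with the highest mean counts and up to 2 with the largest change could be named, and the 5 genes most like Igf2 were taken by Pearson correlation of group means of log2(CPM + 1) among genes whose normalized count averaged 50 or more. Mirg, Malat1, Neat1, Igf1r and uncalled genes were named after their values were seen. The members and lists were chosen with earlier results of these data known. The comparisons E15.5 with E13.5 and E18.5 with E15.5, the newer edgeR fit and the pair Malat1 and Neat1 were added after the data had been seen. The scripts were tested on simulated data. RefSeq sequences come from GRCm38.p6, another build than the counts, and coordinates of the 2 builds were not mixed.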

Additional observations from a re-analysis of the deposited data

How the results depend on the processing

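Of 2270 values of single members under alternatives, 2120 kept their direction and side of the threshold, 57 lost a call, 89 gained one and 4 reversed. The reversals came without index esophagus E15.5 replicate 1, where index libraries were lower than short-code libraries in Igf2 (-1.67), Dlk1 (-1.83), Cdkn1c (-0.75) and Mest (-1.35). Over the 12 refits of that comparison these 4 ranged up to 0.62, 1.14, 1.06 and 0.95, each highest without index esophagus E15.5 replicate 2. The cause was not tested. TMM turned the direction of no called member.

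For the adult relative to P0, members called lower numbered 8 to 10 under the alternatives that kept all 4 libraries, against 9, and 5 to 8 with a library left out (5 without adult replicate 2, 8 without P0 replicate 1). All genes called lower were then 151 to 341, against 741, and higher 126 to 241, against 767. Igf2r was called with no filter (adjusted p = 2.90e-05), and Cdkn1c was not with the kinds merged (0.0630). For the alternatives that kept all 4 libraries, the share of all genes called is not given here.

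Member counts under the alternatives below stand without the share of all genes called in the same alternative. A changed count therefore does not set the members apart from all genes. For P0 relative to E15.5, the full fit called 0 members lower and 0 higher. With no filter, members lower and higher numbered 2 and 1, and without the 5 libraries that stood apart 4 and 1. Larynx libraries only gave 3 and 1. For E13.5 relative to E10.5, 1 member was lower with no filter and 1 without the 5 libraries, against 0, and 0 to 1 with a library left out. For E15.5 relative to E13.5, no filter gave 2 lower and 4 higher, against 1 and 2, and leaving out a library gave 0 to 1 lower. For E18.5 relative to E15.5, no filter gave 2 higher, against 0, and leaving out a library gave 0 to 1 lower. For E18.5 relative to E13.5 over the tissues, 1 was lower and 6 higher both with no filter and without the 5 libraries, against 0 and 2.

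Within the larynx, E18.5 relative to E13.5 had 1 member higher under TMM, 6 with no filter, 0 with the kinds merged and 7 without the 5 libraries, against 2, and 0 to 1 with a library left out. In the esophagus 1 was lower with no filter and 1 without the 5 libraries, and 3 were higher with no filter, 1 in DESeq2, 2 without the 5 libraries and 1 in the newer edgeR fit, against 0. In the trachea 3 were higher with no filter, 1 in DESeq2 and 4 without the 5 libraries, against 0. The interaction called 1 member with no filter, against 0. Index relative to short-code libraries had 0 lower under TMM, 3 with no filter, 2 in DESeq2 and 2 in the newer edgeR fit, against 1, and 1 higher under TMM and 4 with no filter, against 0. Leaving out a library gave 0 to 9 lower and 0 to 5 higher. The spline over the larynx called 4 members in short-code libraries only, against 9, and 5 to 9 with a library left out.

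The replicate block called 1 member in the trachea (Meg3, 2.49, adjusted p = 0.04997), against 0, and moved no other count of members by more than 1.5 times. The labels do not say that a number marks a shared batch, and the numbers were not taken to pair the libraries. Deviations of same-numbered libraries correlated at -0.214 to 0.351 over 190 pairs of groups, over 0.1 in 15, at -0.074 between adult and P0 and at 0.0901 between P0 and E15.5. Between tissues of the same age and kind they ran over 18 pairs from -0.144 to 0.189, and all 3 pairs at E13.5 were over 0.1 (0.111 to 0.189).

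With 2 libraries a group, each comparison borrows its spread from all groups. No age between P0 and the adult was sampled, and between postnatal and short-code embryonic libraries age and kind of library cannot be told apart. Dlk1 in the adult larynx, at 3.18 and 4.04 CPM, rests on 77 and 122 expected counts.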
